A study of Mus with 3 samples.

Results

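Trem2 and 9 genes that microglia switch on around amyloid and damaged tissue were followed across 3 mouse hippocampus arrays. They were taken as every probe whose gene name in the deposited files was Trem2, Tyrobp, Cst7, Clec7a, Itgax, Gpnmb, Cd52, Spp1, Apoe or Lpl. All 10 genes were on the array, with 11 probes among 39429 gene probes, which carry 23626 named genes in all. The members were chosen by their signals and differences over these same 3 arrays, among them high values on the array of the oil group, so their values are a description and no test rests on them.

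Microglia are the resident macrophages of the brain. Trem2 is a surface receptor on these cells that binds lipids, lipoproteins and amyloid β, and it signals through the adaptor Tyrobp, which recruits the kinase Syk. In mouse models of amyloid deposition, microglia near plaques lower their resting genes and, partly through Trem2, turn on a set for phagocytosis, lysosomal digestion and lipid handling. That set is called the disease-associated microglia programme, and the other members belong to it.

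Hippocampal RNA came from male Slc:ddY mice aged 6 weeks, an outbred stock, with 10 mice in each of 3 groups. The ASO mice received shochu oil by mouth at 2000 mg/kg/day for 15 days and Aβ25-35, a short toxic fragment of amyloid β, as 10 nmol in 5 µL into the cerebral ventricles on day 8. The ACO mice received distilled water by mouth and the same peptide injection, and the NCO mice received water by mouth and 5 µL of distilled water, whose route the labels do not give. In 1 place the labels call the injected oil group SCO, which was read here as ASO. The hippocampus was taken after a Y-maze test on day 16. Equal amounts of RNA from 5 sets, each of 2 mice, were combined per group and labelled with Cy3 for a single array, so the spread between animals cannot be seen and no p-value can be given. The ASO, ACO and NCO arrays sat at positions 4, 2 and 1 of the slide, and position and group cannot be told apart. All 11 neuronal and all 11 astrocyte markers listed were above background on every array, as were all 19 of resting microglia.

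Signals below are background-corrected intensities scaled to a common 75th percentile, and a difference is the log2(signal + 50) of the array named first less that of the array named after it. The constant draws the differences of dim probes towards 0. A probe counted as measured at a signal to noise of at least 2.6, and all 10 members passed on all 3 arrays. Of all gene probes, between 50.9% and 53.7% passed on an array. The only error that can be read is that between spots, from 253 probes with 10 copies each, whose ASO minus ACO difference had a median SD over copies of 0.09. It holds no difference between animals or between labelling reactions.

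Most of the members, 8 of 10, were at least 1.5-fold higher on the ASO array than on either other array, while ACO and NCO lay close together. On ASO against ACO, 8 of the 10 reached 1.5-fold higher (1.64% of 13564 measured genes did) and 9 were higher by any amount (47.1% of genes), with a median of 0.84 against -0.01 for all genes. On ASO against NCO, 8 of the 10 reached 1.5-fold higher (1.65% of 13453 genes) and 9 were higher by any amount (47.1% of genes), with a median of 0.82 against -0.01. On ACO against NCO, 0 of the 10 reached 1.5-fold or 2-fold higher (0.203% and 0.0376% of 13310 genes) and 5 were higher by any amount (51.8% of genes), with a median of -0.01 against 0.00. The 2 comparisons with ASO share that array, so they do not count as separate evidence. Since the choice of members used these contrasts, nothing is read from their counts against those shares.

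**Figure D1:**
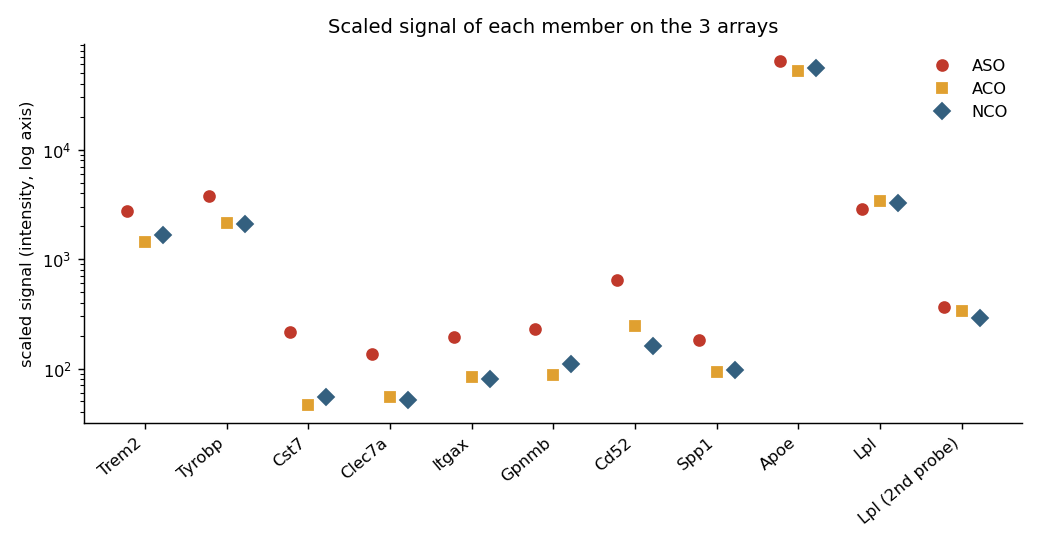
Scaled signal (log axis) of each member's probe on the ASO, ACO and NCO arrays, 1 pooled array per group. The 8 genes from Trem2 to Spp1 have their ASO point above both others, while the ASO point of Apoe is a saturated reading and so a lower bound, and the brighter Lpl probe has its ASO point lowest. Signals of different probes are not comparable with each other.

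The receptor and its adaptor were bright, so their differences depend little on the background. Trem2 had a signal of 2727 on ASO, 1432 on ACO and 1658 on NCO. Its ASO signal stood highest and its ACO signal lowest, at differences of 0.91 (ASO against ACO), 0.70 (ASO against NCO) and -0.20 (ACO against NCO). Tyrobp, the membrane adaptor that carries the activating motif for Trem2, had 3775 on ASO, 2125 on ACO and 2093 on NCO. Tyrobp was thus high on ASO and nearly equal on the other arrays, at 0.81 (ASO against ACO), 0.84 (ASO against NCO) and 0.02 (ACO against NCO). Over 36 probes of like signal printed at 10 spots, the median spot SD was 0.09 for ASO against ACO and 0.07 for ACO against NCO, so the lower Trem2 value on ACO than on NCO exceeded spot error, while the difference of Tyrobp, against 0.07 over 38 probes, did not. When the arrays were scaled to added control RNAs, Trem2 stood at -0.02 for ACO against NCO.

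Among the other surface proteins, Cd52, a short glycolipid-anchored glycoprotein of leukocytes, had a signal of 645 on ASO, 244 on ACO and 161 on NCO. Its values stood in steps, ASO above ACO above NCO, and it was the 1 member higher on ACO than on NCO by more than 2 spot SDs, at 1.24 (ASO against ACO), 1.72 (ASO against NCO) and 0.48 (ACO against NCO). For ASO against NCO, Cd52 ranked at place 3 of 13453 genes from the highest. Its spot SD at this signal was 0.09 for ACO against NCO, so the step between those arrays was also larger than spot error. In the authors' deposited table Cd52 stood at 566 on ASO, 214.9 on ACO and 130.8 on NCO, in the same order. Those values follow the same spot readings on a straight line, so they are no separate evidence.

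Clec7a, a C-type lectin receptor for β-glucans that marks amyloid-associated microglia, had a signal of 137 on ASO, 55.5 on ACO and 51.2 on NCO. Itgax, the αX integrin subunit that also marks dendritic cells, had 192 on ASO, 83.0 on ACO and 79.9 on NCO. Both were set apart on ASO alone, Clec7a at 0.82 and Itgax at 0.86 against ACO, while on ACO against NCO they stood at 0.06 and 0.03, each within a spot SD of 0.11. Without the constant of 50 the signal of Clec7a was 2.46-fold and that of Itgax 2.32-fold higher on ASO than on ACO, and with it 1.77-fold and 1.82-fold. The local background around these spots was 38 to 46 on ACO and NCO, so both ratios rest on signals near the background.

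Some members act in lysosomes or are secreted. Cst7 encodes cystatin F, an inhibitor of lysosomal cathepsins, and had a signal of 216 on ASO, 46.0 on ACO and 54.4 on NCO. Its difference of 1.47 for ASO against ACO was at place 4 of 13564 genes, and it was 1.35 for ASO against NCO. Cst7 lay near background on the lower arrays, with a signal to noise on ACO of 3.33 and on NCO of 3.54. The ratio of its signals, ASO over ACO, was 4.70 without the constant and 2.77 with it, so its size depends on how the low end is treated, and the ACO and NCO values differed by -0.12 against a spot SD of 0.11.

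Gpnmb, a transmembrane glycoprotein of lysosomes in lipid-laden phagocytes, had a signal of 228 on ASO, 87.8 on ACO and 109.7 on NCO. It was 1.01 higher on ASO than on ACO and 0.80 higher than on NCO. Like Trem2 it was lower on ACO than on NCO, at -0.21 with a spot SD of 0.11. When scaled to added control RNAs, Gpnmb stood at -0.09 for ACO against NCO, within that spot SD. In the authors' deposited table, which follows the same spot readings, Gpnmb stood at 191 on ASO, 64.4 on ACO and 87.8 on NCO. That it is lowest on ACO there too is no separate evidence. Spp1, which encodes the secreted phosphoprotein osteopontin, had 183 on ASO, 92.5 on ACO and 96.9 on NCO. Spp1 was the smallest of the 8 differences, at 0.71 (ASO against ACO) and 0.67 (ASO against NCO), and its ACO and NCO values stood -0.04 apart, within the spot SD of 0.11. With spot means in place of medians, Spp1 stood at 0.57 for ASO against NCO, just under 1.5-fold.

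A size of 2-fold higher was reached by 3 members on ASO against ACO (Cst7, Cd52 and Gpnmb; 0.184% of all genes) and by 2 on ASO against NCO (Cst7 and Cd52; 0.178% of all genes). For the brightest probe of the 9 members other than Apoe, every ASO difference, up or down, was larger than 2 spot SDs of probes of like signal. On ACO against NCO only those of Trem2, Gpnmb and Cd52 were. The dimmer Lpl probe, at 0.12 with a spot SD of 0.09 for ASO against ACO, was not. The share of all genes past that size is not given here, so nothing is read from these counts. The spots around the members' own spots differed by between -0.05 and 0.07 for ASO against ACO and between -0.08 and 0.09 for ASO against NCO.

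**Figure D2:**
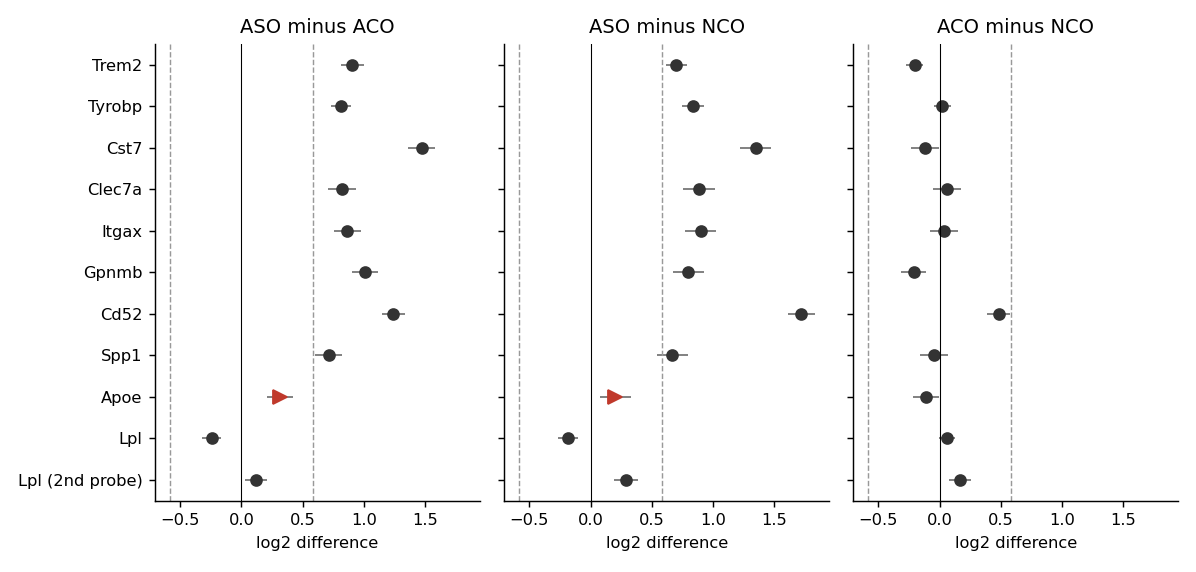
Log2 differences (signal plus 50) of each member for ASO minus ACO, ASO minus NCO and ACO minus NCO; bars are 1 spot SD of probes of like signal printed at 10 spots (for Apoe, the SD over its own 10 spots), dashed lines mark 1.5-fold, and arrowheads are lower bounds because Apoe was saturated on ASO. In the panels with ASO, 8 genes lie right of the upper dashed line, and in the ACO minus NCO panel none does.

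The lipid genes Apoe and Lpl could be read only in part. Apoe encodes the main apolipoprotein of the brain, made mostly by astrocytes, which microglia also express on activation. Its probe was printed at 10 spots and nearly filled the range of the scanner. On ASO the foreground reached the ceiling of 65535 at 9 of 10 spots, and the remaining spot read 59355. On ACO the 10 spots read 48135 to 59289 with a median of 54808.5, and on NCO 45322 to 58588 with a median of 53090.5. The ASO value is thus a bound: ASO exceeded ACO by at least 1.24-fold (mean log2 difference of 0.31, SD 0.11 over 10 spots) and NCO by at least 1.15-fold (0.20, SD 0.13), with all 10 spots higher in each case. When arrays were scaled to added control RNAs both lower bounds lay below 0, so that scaling gives no direction for Apoe.

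On ACO against NCO the Apoe difference after scaling was -0.11 with an SD of 0.11 over the 10 spots, of which 9 were lower (0.08 when scaled to added control RNAs), although the median foreground before scaling was higher on ACO. Saturated pixels were also present at 5 of the 10 ACO spots, at up to 25% of a spot, and at 2 of the 10 NCO spots, but 0 spots of either array read at the ceiling. A true ASO level above the ceiling cannot be read, and whether Apoe was 1.5-fold higher was not measurable.

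**Figure D3:**
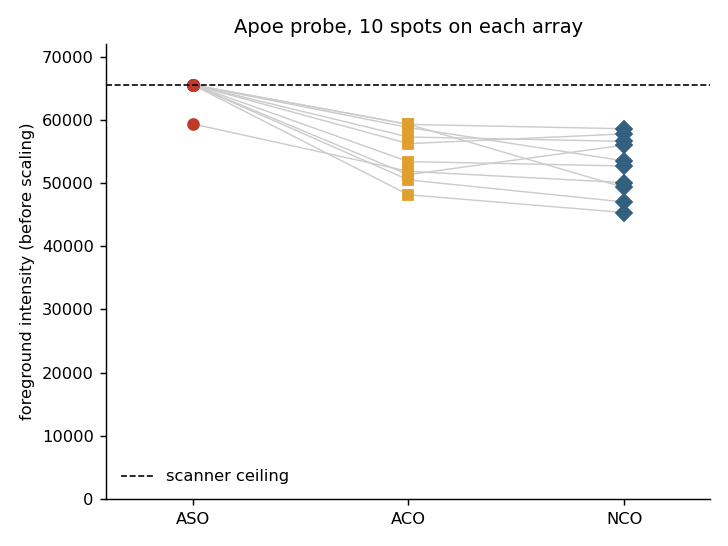
Foreground intensity before scaling of the 10 spots of the Apoe probe on ASO, ACO and NCO, with lines joining the same position on the arrays and a dashed line at the scanner ceiling of 65535. Of the ASO spots, 9 lie on the ceiling, while the ACO and NCO spots overlap each other below it.

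Lpl encodes lipoprotein lipase, which frees fatty acids from triglyceride-rich lipoproteins and is also expressed by hippocampal neurons. Its brighter probe had a signal of 2839 on ASO, 3369 on ACO and 3234 on NCO, lowest on ASO, at -0.24 against ACO and -0.18 against NCO. Its dimmer probe had 368 on ASO, 334 on ACO and 292 on NCO, highest on ASO, at 0.12 against ACO and 0.29 against NCO. The 2 probes thus disagreed in direction for both comparisons with ASO, and each value exceeded its spot SD, of 0.07 and 0.09 for ASO against ACO. No direction can be given for Lpl, and the files do not say which transcripts the probes read.

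Added control RNAs were brightest on ASO. The 5 spike-in control probes above background, which are RNAs added at labelling, were brighter on ASO by a median of 0.66 against ACO and 0.46 against NCO, and dimmer on ACO than on NCO by -0.16. Whether equal amounts went into each reaction is not stated, and their part in the results was not tested. Scaling the arrays to these probes in place of the 75th percentile shifted the median of all genes by -0.57 for ASO against ACO, and 2 of the 10 members, Cst7 at 1.04 and Cd52 at 0.66, then still reached 1.5-fold higher, with Trem2 at 0.27, Tyrobp at 0.18 and a lower bound of -0.34 for Apoe. The share of all genes at 1.5-fold higher under that scaling is not given here, so the count of 2 is not set against one. Relative to the median of all genes, the members' median was 0.86 with the main scaling and 0.92 with the spike-in scaling.

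**Figure D4:**
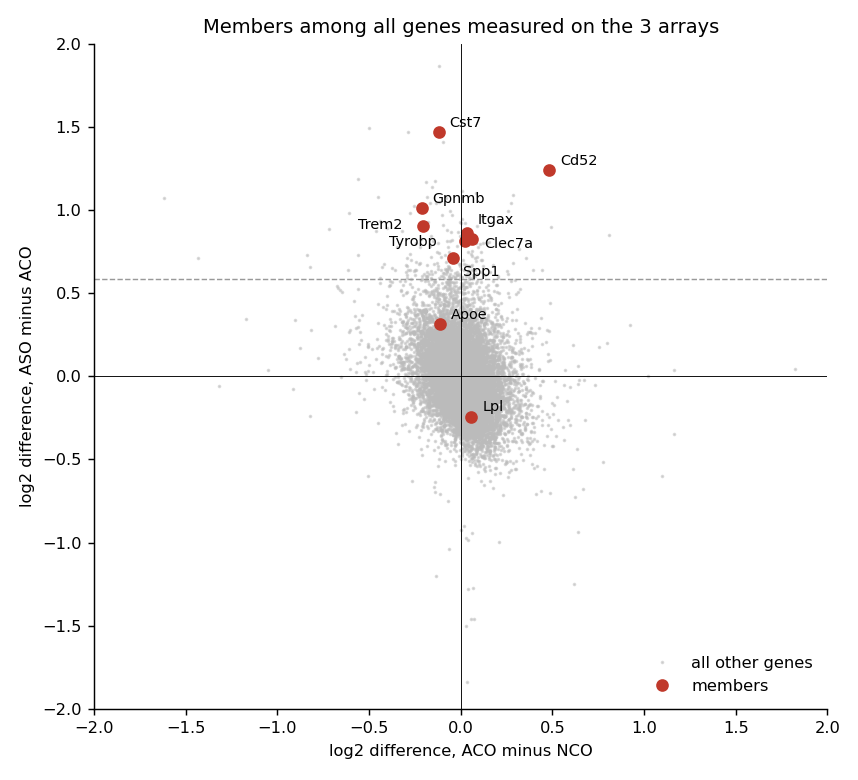
Log2 difference of every gene measured on all 3 arrays (13186 genes), ACO minus NCO on the horizontal axis and ASO minus ACO on the vertical axis, with the members in red and a dashed line at 1.5-fold. Most members sit above the dashed line near 0 on the horizontal axis, with Cd52 to the right and Lpl below 0; the axes share the ACO array, so no relation between them is read.

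The pattern of the members was summarised by their median pair of differences, -0.01 for ACO against NCO and 0.84 for ASO against ACO. Among 13186 genes measured on all 3 arrays, the 5 outside the set that lay nearest to that pair by straight distance were Gfap, Aff3, Rnf216, Rpl31-ps21 and Rbm15b. Gfap, the intermediate filament of astrocytes, had a signal of 5207 on ASO, 2878 on ACO and 2888 on NCO, at differences of 0.84 for ASO against ACO and -0.0049 for ACO against NCO. Likeness over 3 arrays is weak, and 137 of the 13186 genes (1.04%) reached 1.5-fold higher on ASO against each of the other arrays, 8 members among them.

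Most genes measured from a further list of the same programme were also higher on ASO than on ACO with the main scaling. The members were chosen for high values and this list with earlier results known, so their sizes are not compared. The list of 36 further disease-associated microglia genes had 29 measured on ASO and ACO. Of these, 24 were higher on ASO with the main scaling (47.1% of all genes) and 5 with the spike-in scaling. Relative to the median of all genes, which that scaling shifts, their median was 0.29 with the main scaling and 0.22 with the spike-in scaling. Their unadjusted median was 0.28, beside 0.34 for resting microglia markers and 0.22 for neuronal markers. At least 1.5-fold higher were 5 of the 29 (1.64% of all genes). The highest were Ccl3, a chemokine for monocytes, at 1.18, the inhibitory receptor gene Lilrb4a at 1.18 and the actin-capping gene Capg at 0.62. Ccl3 and Lilrb4a lay near background on ACO, at a signal to noise of 2.77 and 3.71, so the sizes of their differences are uncertain. The lowest were Ank, a membrane transporter of pyrophosphate and ATP, at -0.29, the hypoxia factor gene Hif1a at -0.26 and the galectin gene Lgals3 at -0.05. Ccl4, another chemokine gene, and Lyz2, a lysozyme gene, were well above background on ASO alone. With the constant added, their ASO signals were 2.06-fold and 1.92-fold their dim ACO readings. Those readings are uncertain, so these ratios are not lower bounds. The ferritin heavy chain gene Fth1 was saturated on ASO, so its 0.36 is a bound.

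Against NCO, 24 of 28 measured genes of that list were higher on ASO (47.1% of all genes), with a median of 0.29. At least 1.5-fold higher were 7 (1.65% of all genes), among them the chemokine gene Ccl6 at 1.19 and Lilrb4a at 1.04. On ACO against NCO 19 of 28 were higher (51.8% of all genes), with a median of 0.08. Ccl6 at 0.61 was the 1 gene at least 1.5-fold higher (0.203% of all genes). Ccl6 had a signal of 330 on ASO, 203 on ACO and 116 on NCO, the same stepwise order as Cd52.

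Genes of a Trem2 signalling list were nearer to 0. The list also holds genes not downstream of the receptor, among them Adam10, Adam17 and Csf1r, the last also listed for resting microglia. Of 29 listed genes 19 were measured on ASO and ACO. Of these, 13 were higher on ASO with the main scaling (47.1% of all genes) and 1 with the spike-in scaling. The median with the main scaling was 0.09, and 0 genes were at least 1.5-fold higher (1.64% of all genes). Relative to all genes the median was 0.10 with the main and 0.12 with the spike-in scaling. Against NCO, 13 of 19 were higher on ASO (47.1% of all genes), with a median of 0.17. Inpp5d at 0.61 was the 1 gene at least 1.5-fold higher (1.65% of all genes). On ACO against NCO, 10 of 18 were higher (51.8% of all genes), with a median of 0.02. Highest were Inpp5d, a lipid phosphatase that restrains Trem2 signalling, at 0.57, the tyrosine phosphatase gene Ptpn6 at 0.57 and the transcription factor gene Nfatc1 at 0.42. Lowest were Bcl10 at -0.27 and Malt1 at -0.25, partners in a complex that activates NF-kB, and the kinase gene Pik3cd at -0.13. Syk, the kinase recruited by Tyrobp, stood at 0.35 with a signal of 125 on ASO and 86.8 on ACO, and Plcg2, the phospholipase downstream of it, at 0.15. Hcst, the gene next to Tyrobp, encodes another adaptor of the same kind. With the constant added, its ASO signal was 1.45-fold its ACO reading. On ACO it was not well above background, so this ratio is not a lower bound.

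Lipoprotein and lipid handling genes had no common direction with the main scaling. Of 21 listed genes, Apoe and Lpl among them, 20 were measured. On ASO 11 were higher than on ACO (47.1% of all genes) and 9 lower, with a median of 0.02 (1 higher with the spike-in scaling). Relative to all genes the median was 0.03 with the main and 0.02 with the spike-in scaling. The highest were Apoc1, an apolipoprotein gene beside Apoe, at 0.63, Clu, which encodes the apolipoprotein clusterin, at 0.55, and Plin2, a lipid droplet coat protein gene, at 0.37. Clu had 45% saturated pixels on ASO, so its value may be held down. The lowest were Angptl4, an inhibitor of lipoprotein lipase, at -0.37, the sterol exporter gene Abcg1 at -0.26 and the lipoprotein receptor gene Lrp8 at -0.20.

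**Figure D5:**
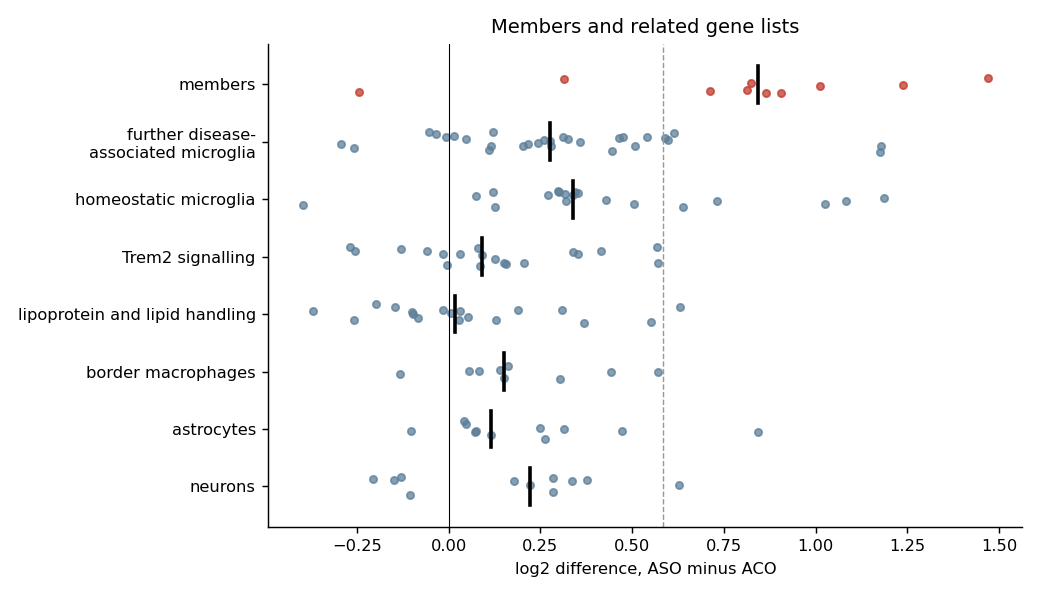
Log2 difference ASO minus ACO of each measured gene of the members and of 7 other lists (members left out of the other lists), with black bars at list medians and a dashed line at 1.5-fold. The members' median of 0.84 lies right of the medians of the other lists shown; the members were chosen for high values, so this is a description.

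Markers of microglia in general were higher on ASO with the main scaling as well, and their part in the members' differences was not tested. All 19 homeostatic microglia genes were measured, and 18 were higher on ASO than on ACO (47.1% of all genes). The median was 0.34, and 4 of 19 were higher with the spike-in scaling. Of the 19, 5 were at least 1.5-fold higher (1.64% of all genes) and 3 at least 2-fold (0.184% of all genes). These 3 were C1qa at 1.02, C1qb at 1.19 and C1qc at 1.08. P2ry12 was the 1 lower gene, at -0.40, and stood at 0.37 for ACO against NCO. Relative to all genes the median of the 19 was 0.35 with the main and 0.34 with the spike-in scaling. Their summed signal was 87004 on ASO, 62362 on ACO and 69667 on NCO, and without Sparc, the brightest probe, 45934 on ASO, 36028 on ACO and 41296 on NCO. Most of the excess of the NCO sums over the ACO sums lay in 1 gene, Itgam, with 4790 on ASO, 3760 on ACO and 8521 on NCO. Itgam has 3 probes, and these values are those of the brightest only. On ACO against NCO 7 of the 19 were higher (51.8% of all genes), with a median of -0.03. In these pooled tissue samples more microglia and more RNA per microglial cell cannot be told apart. Among markers of border macrophages, 8 of 9 measured genes were higher on ASO than on ACO (47.1% of all genes), with a median of 0.15. With the spike-in scaling 1 of 9 was, and Cd163 and Lyve1 were not well above background on any array. Relative to all genes the median of the border macrophage markers was 0.16 with the main and 0.24 with the spike-in scaling. Their summed signal of 23233 on ASO, 20646 on ACO and 20295 on NCO was mostly Mgl2, without which it was 1434 on ASO, 1158 on ACO and 1186 on NCO. Of 11 monocyte and neutrophil markers, 7 were not well above background on any array, Ccr2 and S100a8 among them. The summed signal of the 11 was 486 on ASO, 549 on ACO and 471 on NCO. Of the 3 measured, 1 was higher on ASO than on ACO, with a median of -0.20. S100a9 was lowest at -0.68, with 70.4 on ASO, 143 on ACO and 71.4 on NCO. Of 13 T, B and NK cell markers, 8 were not well above background on any array, and the summed signal of the 13 was 1308 on ASO, 1193 on ACO and 1182 on NCO. Of the 4 measured, 2 were higher on ASO than on ACO, with a median of 0.20. Most markers of other cell types were higher on ASO than on ACO with the main scaling (47.1% of all genes were). They were 10 of 11 for astrocytes (median 0.12), 7 of 11 for neurons (0.22) and 7 of 9 for oligodendrocytes (0.08). Against NCO, 8 of 11 astrocyte (median 0.18), 6 of 11 neuronal (0.14) and 3 of 9 oligodendrocyte markers (-0.12) were higher on ASO. On ACO against NCO 0 of 9 oligodendrocyte markers were higher, with a median of -0.19. With the spike-in scaling 1 astrocyte marker was higher on ASO than on ACO, and 0 of the neuronal and oligodendrocyte markers were. Relative to all genes, main and spike-in medians for ASO against ACO were 0.13 and 0.07 for astrocytes, 0.24 and 0.16 for neurons and 0.10 and 0.02 for oligodendrocytes.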

How the data were processed

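The members, the gene lists and the size rule of 1.5-fold were chosen with earlier results of these data known. Intensities of foreground and local background, the percent of saturated pixels, a signal to noise score and a bad-spot mark per spot were deposited as GenePix Pro 6.1.0.4 gave them, without normalization, per the file headers. The submitters' processing notes name Agilent Feature Extraction, whose processed signal was not used here. A value table deposited by the authors holds intensities of 475 probes, including 2 members (Cd52 and Gpnmb). Its columns followed the foreground on a straight line to within 0.05, so its scale is linear. Column medians were 113 on ASO, 97.4 on ACO and 117 on NCO, and the origin of the slopes (0.893, 0.917 and 1) stays unknown.

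Foreground medians were corrected by normexp (limma 3.58.1, R 4.3.3) on all spots, control spots were left out, and arrays were brought to 1 shared 75th percentile (factors: ASO 0.991, ACO 0.949, NCO 1.06). After adding 50, log2 values of a probe's spots were averaged (Python 3.11.15, numpy 2.4.6, pandas 2.3.3). A probe entered a comparison at a signal to noise of at least 2.6 on both arrays, without a bad mark and not saturated (50% of pixels) on both. A gene was represented by its brightest entered probe. Names other than the members' came from a RefSeq table (26575 probes by accession, 2602 by symbol, 490 by synonym), used for names and gene order only. The rule for names took all members, the 3 highest and 3 lowest genes (ASO against ACO) of 3 lists, whose other genes could also be named, and the 5 genes nearest to the members' median pair. Ccl4, Ccl6, Lyz2, Fth1 and Hcst were picked from those lists after their values were seen. Hbb-b2, S100a9, P2ry12, Itgam, C1qa, C1qb and C1qc were picked from the marker lists in the same way. Ratios for genes dim on 1 array used signal plus 50 and the dim reading itself, so they are not bounds. No test was run, as each group is a single array. Other settings tried were plain subtraction, spot means, quantile and spike-in scaling, another constant, other filters, the mean over probes, the surrounding spots and the deposited table. The steps were checked on simulated signals. The planned search of promoter motifs was not run, since no sequences were used here.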

Additional observations from a re-analysis of the deposited data

Results flagged for a closer look

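Spike-in control probes, which the comparisons of genes do not use, were brighter on the ASO array, by a median of 0.66 on the log2 scale against ACO and 0.46 against NCO, with all 5 probes higher in each case. The range over the 5 was 0.41 to 0.84 against ACO.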

How the results depend on the processing

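The deposited table gave values for Cd52 and Gpnmb only. Scaling to the spike-in probes moved all 30 member differences by more than spot error: the members' median was 0.34 (ASO against ACO), 0.41 (ASO against NCO) and 0.12 (ACO against NCO), with 2, 2 and 1 members at least 1.5-fold higher in that order, and the lower bounds of Apoe were -0.34 against ACO and -0.26 against NCO, which give no direction. Spot means gave medians of 0.70 (ASO against ACO) and 0.71 (ASO against NCO), with Spp1 at 0.57 against NCO, and adding 16 in place of 50 gave 1.00 for ASO against ACO. The stricter filter on dim probes left 7 members for ASO against NCO, 5 of them at least 1.5-fold higher. Shares of all genes at 1.5-fold are given for the main setting only, so counts under other settings are not set against a share. Without Apoe, an alternative chosen after seeing that it was saturated, the median was 0.86 for ASO against ACO. The mean over both Lpl probes was -0.06 against ACO and 0.05 against NCO. Under plain subtraction, quantile scaling, no filter on dim probes, the mean over probes and subtraction of the surrounding spots, the 3 medians and 3 counts stayed within spot error or 1.5 times. The ratios of Cst7 and Clec7a are limited by signals close to background on ACO and NCO. No paired analysis was possible because each group had 1 array, and no replicate could be left out.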

Other observations

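Red blood cell genes were higher on ASO than on ACO in 5 of 5 measured genes (47.1% of all genes). Their median was 0.23, with Hbb-b2, a β-globin gene, at 0.93. With the spike-in scaling 1 of 5 was higher. Relative to all genes their median was 0.25 with the main and 0.27 with the spike-in scaling. Choroid plexus genes were lower on ASO than on ACO in 9 of 10 measured genes, with a median of -0.23 (10 of 10 with the spike-in scaling). Against NCO, 9 of 10 were higher on ASO (47.1% of all genes), with a median of 0.16 (0 of 10 with the spike-in scaling). On ACO 9 of 10 were higher than on NCO (51.8% of all genes), with a median of 0.50. Relative to all genes, main and spike-in medians were -0.22 and -0.21 for ASO against ACO and 0.17 and 0.17 for ASO against NCO. Ttr was the exception in all 3 comparisons, with a signal of 15657 on ASO, 14579 on ACO and 20070 on NCO, and the summed signal without it was 5810 on ASO, 6982 on ACO and 4998 on NCO.

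The measured genes directly next to a member had no common direction for ASO against ACO: Apoc1 and Tomm40 beside Apoe stood at 0.63 and 0.31, Lrfn3 beside Tyrobp at 0.06, Apmap beside Cst7 at -0.15, Ubxn11 beside Cd52 at 0.06, Malsu1 beside Gpnmb at 0.01, Pkd2 beside Spp1 at -0.45 and Ints10 beside Lpl at -0.28. Treml1, the gene beside Trem2, had signals of 48.6 on ASO, 43.1 on ACO and 49.1 on NCO and did not enter the comparison. Itgam, beside Itgax, had a signal of 4790 on ASO, 3760 on ACO and 8521 on NCO on the brightest of its 3 probes. That probe stood at 0.35 for ASO against ACO and -1.17 for ACO against NCO.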
